A study of Mus musculus with 70 samples.

Results

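Regulatory T cells (Tregs) that lacked the interleukin-33 receptor ST2 but carried high CD44 were compared between colon and spleen. All 10 libraries carrying these labels held more than 1000000 counts and were kept, 5 from colon and 5 from spleen, out of 70 libraries in the series. The mice were males of the Foxp3YFP-cre reporter strain, aged 16.6 to 18.6 weeks and otherwise untreated, in which Foxp3-expressing cells carry a yellow fluorescent protein and Cre. Each of 5 mice gave 1 colon and 1 spleen library made from 220 sorted cells, and every list of 5 values below follows mice 1 to 5. The gate took live CD45.2+ CD4+ YFP+ cells that lacked CD8, CD11b and other lineage markers, so both groups were antigen-experienced, ST2- Tregs. Totals ran from 1592181 to 2338195 counts in colon and from 2195741 to 2656728 in spleen.

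Tregs restrain immune responses, and the lamina propria of the colon is known for Tregs that are induced by the microbiota and make interleukin-10. CD44hi Tregs of the spleen are the matched antigen-experienced population of a lymphoid organ. Cells reached the sorter by different routes: colon was stripped of epithelium in warm buffer with DTT and EDTA, digested with collagenase and DNase and forced through a syringe, whereas spleen was dissociated mechanically, freed of red cells and enriched for CD4+ cells on magnetic beads. This handling and the tissue cannot be told apart in these libraries. The colon also holds epithelium, plasma cells, macrophages and stroma whose RNA can enter a small sort, so RNA of those cells was measured in each library first and then set beside the Treg genes.

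RNA of epithelial cells was present in every colon library above its level in spleen, and 1 library stood far apart. The summed level of 39 epithelial genes (mucins, keratins, claudins and enterocyte enzymes), in counts per 1000000 of the library (CPM), was 78.3, 6761, 799, 96.7 and 397 in colon and 24.4, 18.1, 33.2, 18.0 and 45.9 in spleen. The library of mouse 2 therefore held over 8 times the sum of the next library, and the groups did not overlap. In spleen 30 of the 39 genes were at 0 in every library. The difference between the groups' mean log2 sums was 4.02 (exact permutation test, two-sided, p = 0.00794, the smallest p that 5 against 5 allows), and it was 3.04 without the colon library of mouse 2. With the libraries paired by mouse, the exact sign-flip test gave p = 0.0625, the smallest that 5 pairs allow. Muc2, the gel-forming mucin of goblet cells, reached 2009 CPM in mouse 2 against 0, 53.2, 0.847 and 14.5 CPM in mice 1, 3, 4 and 5.

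RNA of further cell types was read in the same way. The 19 stromal, muscle and endothelial genes summed to 119, 1972, 1232, 888 and 88.2 CPM in colon and to between 190 and 250 CPM in spleen, so the groups overlapped (exact permutation test, two-sided, p = 0.246). The 24 macrophage and dendritic cell genes summed to 838, 2868, 1132, 1096 and 767 CPM in colon against 321 to 415 CPM in spleen, and 8 of the 24 were at 0 in every spleen library. Mouse 2 was the highest and mouse 3 the next colon library for the epithelial, stromal and macrophage lists alike. The 13 B and plasma cell genes summed to 1283 to 2022 CPM in colon against 102 to 139 CPM in spleen (exact permutation test, two-sided, p = 0.00794 for this and for the macrophage list). Plasma cell RNA was nearly even across the colon libraries: Jchain, the joining chain of polymeric antibodies, stood at 991, 1179.8, 1439, 958 and 1184 CPM in colon and at 3.37, 3.35, 1.30, 4.97 and 1.76 CPM in spleen. Cd8a and Itgam (CD11b), which the gate excluded, were at 0 in all 10 libraries. In bulk libraries, fewer cells of a type and less RNA per cell cannot be told apart.

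**Figure D1:**
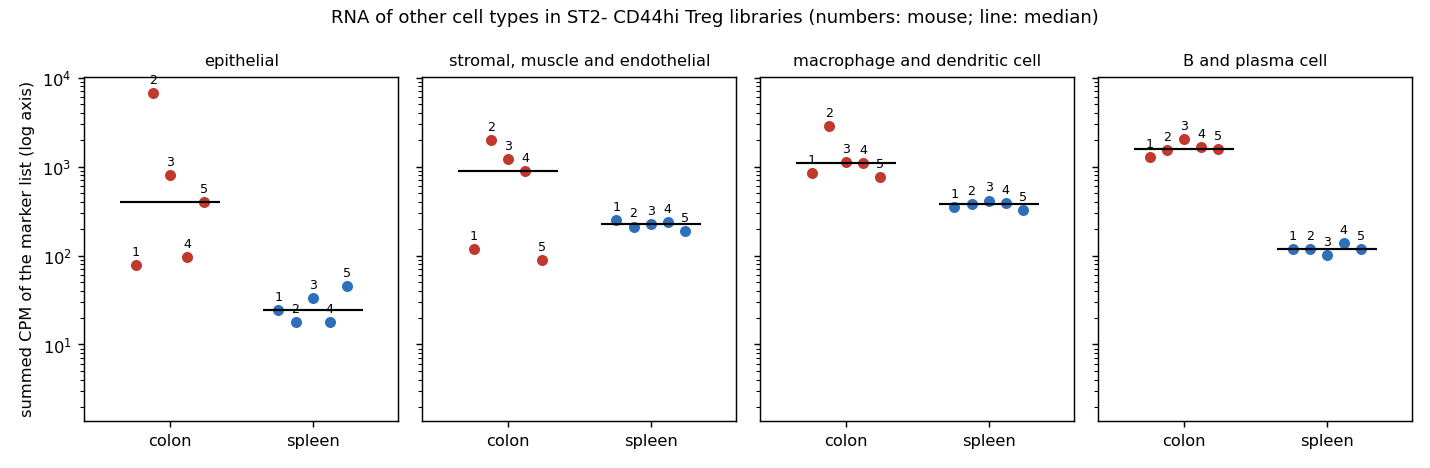
Summed CPM (log axis) of 4 marker lists in the 5 colon and 5 spleen libraries. Numbers mark the mouse and lines the medians. Epithelial RNA in colon ran from 78.3 to 6761 CPM with mouse 2 on top, while B and plasma cell RNA kept within 1283 and 2022 CPM.

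Against spleen, 1136 of 13173 tested genes (8.62%) were higher in colon and 319 (2.42%) were lower, with a 1.5-fold change or more and an adjusted p no higher than 0.05 (edgeR quasi-likelihood test, Benjamini-Hochberg adjustment). All 5 colon libraries lay above all 5 spleen libraries for 1026 tested genes (7.79%), and below them for 670 (5.09%). Without the colon library of mouse 2, 747 genes were higher and 214 lower. Leaving out 1 spleen library gave 816 to 849 higher and 245 to 274 lower genes, and 1 of the other colon libraries 942 to 1129 and 258 to 387. With only the colon libraries of mice 1 and 4, which held under 100 epithelial CPM, 409 were higher and 72 lower, in a comparison of 2 libraries with 5 chosen after the sums were seen.

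The genes that were higher were then divided by what Tregs elsewhere express. This division cannot tell a Treg source from tissue RNA, because libraries of other tissues can hold RNA of their surroundings as well. Against spleen, 9 of 24 macrophage and dendritic cell genes were higher and 0 lower in ST2- visceral fat libraries (4.26% and 1.53% of all tested genes). Of 19 stromal, muscle and endothelial genes, 11 were higher and 2 lower in ST2- skin libraries (16.7% and 14.1% of all tested genes). Of the 1136, 711 were seen in CD44hi Tregs of other tissues (a median of at least 5 CPM in 2 or more of 8 ST2- and ST2+ groups from blood, lungs, visceral fat and skin), 377 were not, and 48 were on a marker list of another cell type. Genes of the latter groups could pass the filter on low counts through the colon libraries in which they were high, so their shares of tested genes are not given. The same selection bears on their slopes and on the calls kept below. A difference between the classes in either is therefore no test of the source of the RNA. The slope of each gene on the epithelial sum among the 5 colon libraries, in log2 units per log2 unit, gave a further axis. Its median was 0.04 for the 711 genes, 0.54 for the 377 and 0.49 for the 48. Over all tested genes of the same classes, called or not, the medians were -0.0019, 0.22 and 0.47. Of the 48, 19 are on the epithelial list and so part of the sum itself. The 10 tested B and plasma cell genes had a median slope of 0.02, so a slope near 0 does not mark a Treg source. Without the colon library of mouse 2, 562 of the 711, 152 of the 377 and 27 of the 48 were still called, and with mice 1 and 4 alone 347, 44 and 11. Leaving out 1 spleen library also lowered the count, to 797 to 812 of the 1136 calls, against 741 without the colon library of mouse 2. Leaving out 1 of the other colon libraries kept 932 to 1059.

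**Figure D2:**
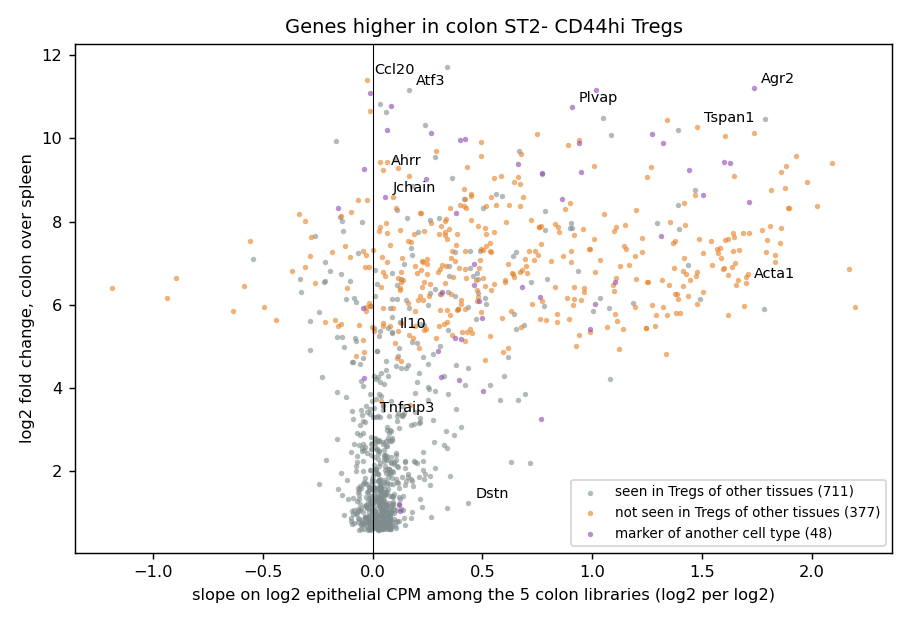
Each point is 1 of the 1136 genes higher in colon, placed by its slope on epithelial RNA among the 5 colon libraries (x axis, log2 per log2) and its log2 fold change over spleen (y axis). Grey points, the 711 genes seen in Tregs of other tissues, gather near a slope of 0, while orange and purple points spread to slopes above 1. Orange and purple genes could pass the filter through colon libraries in which they were high, which bears on their slopes.

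Tested one by one, 6 genes rose with epithelial RNA among the colon libraries (0.0455% of those tested), or 1 with mouse as a block, and none fell. No gene was called without the colon library of mouse 1 or that of mouse 2, and 2 were called without that of mouse 5. Agr2 and Lgals4, 2 of the 6, are on the epithelial list and so part of the sum itself. Off that list the smallest adjusted p belonged to Dstn (an actin-severing protein), Spint2 (an epithelial protease inhibitor), Gmds (an enzyme of GDP-fucose synthesis), Tspan1, Acta1 and Ckmt1, of which the first 4 were called. Tspan1, a tetraspanin of secretory epithelium, stood at 0.568, 338, 21.4, 0 and 14.5 CPM in colon and 0 in every one of the spleen libraries. Gmds was 47.1, 241, 54.5, 56.3 and 56.8 CPM in colon and 29.9, 46.0, 46.1, 43.9 and 45.0 CPM in spleen, a log2 fold change of 1.11 ± 0.31 (adjusted p = 0.0121) that fell to 0.34 without mouse 2. Acta1, the actin of skeletal muscle, was at 0, 275, 0, 0.423 and 0 CPM, so its call came from 1 library and its direction turned without it (log2 fold change -1.73). With mouse as a block its adjusted p was 0.0811. A Treg source and an epithelial or tissue source cannot be told apart for these genes.

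Ccl20 and Ahrr were low or at 0 in ST2- CD44hi Tregs of the other tissues. For Ccl20 this follows from its choice, as it was picked from the class of genes not seen in Tregs of other tissues. Ccl20, the chemokine ligand of CCR6, stood at 294, 197, 82.4, 88.1 and 166 CPM in colon and 0 in every one of the spleen libraries, at least 629-fold higher. Its slope on epithelial RNA was -0.03 ± 0.23 (SE), and its median was 0 CPM in blood, lungs, visceral fat and skin, with a highest value of 7.02 CPM in a lung library. In colon ST2+ Tregs of mice 1, 3 and 4, Ccl20 was 23.5, 2.21 and 3.44 CPM. The cell source of this RNA was not tested. Ahrr, the repressor of the aryl hydrocarbon receptor and one of its target genes, was 35.2, 28.1, 67.5, 23.3 and 27.8 CPM in colon and 0 in every one of the spleen libraries, at least 136-fold higher. Its slope was 0.05 ± 0.48 (SE), and it was at 0 in every library of blood, lungs and visceral fat and at 5.56, 0, 1.91, 8.39 and 0 CPM in skin. Both groups of 5 libraries were separate for both genes. Other genes of the same class were uneven across mice: Plpp3, a lipid phosphatase of endothelium and stroma, was 0, 121, 250.4, 7.20 and 2.42 CPM, and Cd24a was 6.82, 282, 68.8, 78.3 and 13.3 CPM in colon.

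Genes of the gate were read in every library. Foxp3, the lineage factor of Tregs, was 204, 209, 195, 192 and 223 CPM in colon and 126, 162, 118, 151 and 139 CPM in spleen, and the log2 difference of 0.55 ± 0.13 (adjusted p = 0.00116) was below the 1.5-fold limit. Cd4 and Ptprc (CD45) did not pass the test, with log2 differences of 0.35 ± 0.16 and 0.14 ± 0.10. Cd44 was 625, 609.7, 679, 461 and 695 CPM in colon and 127, 162, 209.6, 214 and 176 CPM in spleen, 1.79 ± 0.20 (adjusted p = 3.25e-10), so colon cells carried more Cd44 mRNA although both groups were gated on CD44hi. Il1rl1, which encodes ST2 and was the negative gate, was 0, 60.6, 26.6, 18.2 and 18.7 CPM in colon and 0.374, 0.419, 1.30, 3.32 and 0 CPM in spleen. Among colon libraries that of mouse 1 alone lacked it, the groups overlapped, and the level stayed below the 528 to 685 CPM of colon ST2+ Tregs. The log2 fold change of 4.48 ± 0.69 (adjusted p = 1.88e-06) fell to 3.85 without the colon library of mouse 2 and rose to 5.44 without the spleen library of mouse 4.

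Genes of a programme known from microbiota-induced colonic Tregs were higher. Of 18 listed genes 16 were tested and all 16 were called higher (8.62% of all tested genes were), with a median log2 fold change of 3.17 against 0.02 over all tested genes. For 15 of them all colon libraries lay above all spleen libraries, as they did for 7.79% of all tested genes. Il17f and Il22, cytokines of type 17 cells, were at 0 in all 10 libraries and were not tested. The lists were drawn up for colon Tregs with earlier results known, so the count describes these libraries. Against the same spleen libraries, 12 of the 16 were also higher in ST2- CD44hi Tregs of skin, 7 in visceral fat, 6 in lungs and 0 in blood. The shares over all tested genes were 16.7%, 4.26%, 3.2% and 1.65%. In ST2+ Tregs of colon against spleen 7 of the 16 were higher (8.62% of all tested genes). In colon ST2- Tregs 1 of the 16, Il10, was above lungs, visceral fat and skin alike (0.296% of all tested genes).

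Il10, the suppressive cytokine, was 686, 811, 675, 384 and 776 CPM in colon and 24.3, 11.7, 4.35, 12.0 and 29.9 CPM in spleen, with a log2 fold change of 5.31 ± 0.42 (adjusted p = 6.82e-15). Every colon library held more than 10 times the highest spleen value. Maf, the factor that drives Il10 in T cells, was 487, 394, 516, 339 and 593 against 132, 145, 188, 148 and 161 CPM, a smaller difference of 1.59 ± 0.29 (adjusted p = 4.61e-05). Havcr2, the inhibitory receptor TIM-3, was 119, 117, 81.1, 67.7 and 169 CPM in colon and 0 in every one of the spleen libraries, at least 420.1-fold higher. Icos and Ctla4, receptors of costimulation and its restraint, rose by 1.69 ± 0.15 and 1.58 ± 0.14 on the log2 scale, with colon values of 1016 to 1428 and 1000.0 to 1431 CPM. Il10, Icos and Ctla4, and below Nfkbia, Fos and Tnfrsf4, were among 100 called genes that exceeded 0.5 counts per exonic base in a library, where the highest value was 1.96 among genes of at least 100 bases. Tnfaip3 (0.826 at its highest), Areg, Cxcr6, Gadd45b, Nfkbid, Ifngr1, Id2, Gzmb and Ltb4r1 were further ones, and these names are not the full set.

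Receptors that guide T cells to the gut belonged to the same list. Gpr15, a receptor for the large intestine, was 288, 186, 274, 173 and 274 CPM in colon and 34.0, 13.8, 13.9, 57.2 and 91.4 CPM in spleen (2.50 ± 0.52, adjusted p = 0.000427). Ccr9, the receptor for the small-intestinal chemokine CCL25, was 132, 103, 157, 138 and 266 against 0, 0, 5.65, 18.6 and 20.03 CPM (4.15 ± 1.14, adjusted p = 0.00944). Cxcr6 was 470.3, 379, 639, 397 and 737 against 28.0, 25.1, 22.6, 16.99 and 88.2 CPM (3.84 ± 0.49, adjusted p = 1.48e-08, and 4.49 without the spleen library of mouse 5). In all of these, colon and spleen values were separate.

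Not all 16 calls were firm. 12 held with each of the 10 libraries left out in turn. Ccr6 (1.44 ± 0.51, adjusted p = 0.0494) lost its call whichever library was left out, with log2 fold changes of 1.31 to 1.53, although its colon values of 271 to 446 CPM lay above its spleen values of 108 to 169 CPM. Itgae, the integrin CD103, was 559.5, 207, 308, 249 and 395 against 93.1, 79.9, 137, 116 and 150.4 CPM (1.58 ± 0.56, adjusted p = 0.0492) and kept its call only without the colon library of mouse 4 (1.31 to 1.70), and lost it with mouse as a block (1.5, adjusted p = 0.0527). The interleukin-23 receptor Il23r lost its call without the colon library of mouse 5 or the spleen library of any of mice 1 to 4 (4.91 to 8.99), and Il17a, at 6.25, 24.9, 22.1, 0.423 and 18.7 CPM in colon and 0 in spleen, kept it only without the colon library of mouse 1 or 4. Il1r1 was at 0 in mouse 4, and its groups overlapped. DESeq2 called 12 of the 16 and the fit with an epithelial term 13. With mice 1 and 4 alone, 10 were called.

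**Figure D3:**
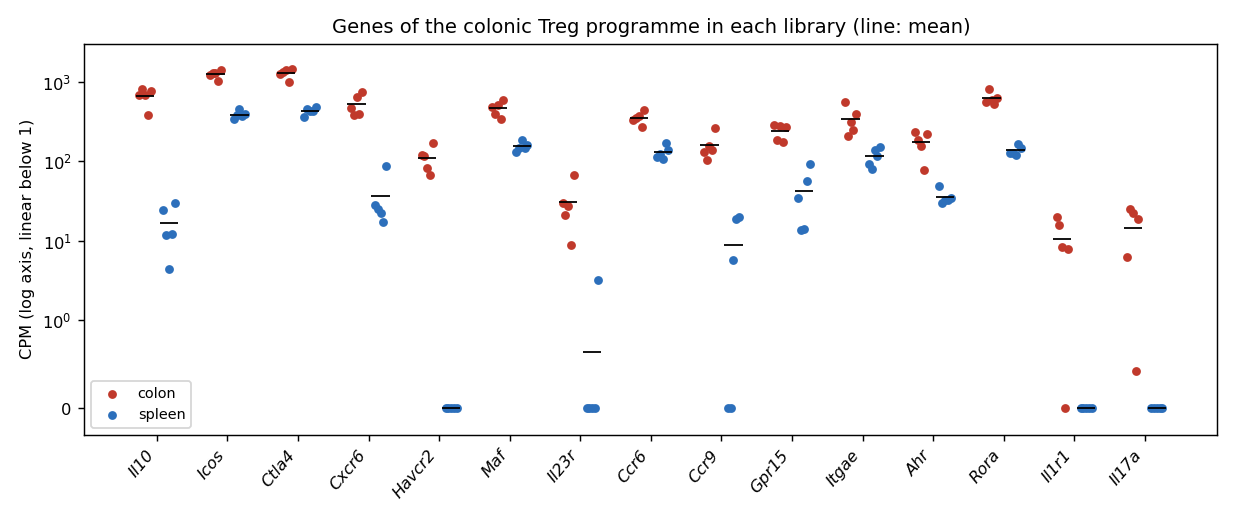
CPM (log axis, linear below 1) of 15 of the 16 tested genes of the colonic Treg programme in the 5 colon (red) and 5 spleen (blue) libraries, with lines at the means. Colon points lie above spleen points for every gene shown but Il1r1, which was 0 CPM in the colon library of mouse 4.

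Genes of NF-kB signalling changed unevenly. NF-kB dimers enter the nucleus when their IkB inhibitors are degraded, and switch on the genes of their own inhibitors. Of 18 listed genes, 7 were higher and none lower, where 8.62% and 2.42% of all tested genes were. The median log2 fold change was 0.39. The 7 were Rel, Nfkbia, Nfkbid, Nfkbiz, Tnfaip3, Birc3 and Cd83, of which Birc3 lost its call without the colon library of mouse 2 (0.55) and Cd83 kept it in 1 of the 10 fits that left out a library (0.81 to 1.0). Tnfaip3 had the smallest adjusted p of all tested genes.

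Tnfaip3 encodes A20, an enzyme that edits ubiquitin chains and stops NF-kB signalling. Its level was 2561, 2169, 2509, 1843 and 2462 CPM in colon and 299.9, 203, 264, 252 and 158 CPM in spleen, a log2 fold change of 3.29 ± 0.17 (adjusted p = 7.01e-23). The lowest colon library stood more than 6 times above the highest spleen library, and the slope on epithelial RNA was 0.00 at 2 decimals. Rel, the subunit c-Rel, was 381, 478, 288, 428 and 410.1 against 99.1, 117, 117, 116 and 134 CPM (1.77 ± 0.21, adjusted p = 1.40e-09). The inhibitors Nfkbia and Nfkbid rose by 1.0 ± 0.15 and 1.34 ± 0.23, whereas the subunits Nfkb1 (0.37 ± 0.18), Nfkb2 (0.18 ± 0.25) and Relb (-0.13 ± 0.26) did not pass the test.

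Promoters of 4 genes, chosen after their values were seen and all holding a motif match, are shown so that their letters can be read beside these values. They were taken from RefSeq on GRCm38.p6, from 250 bases before to 50 after the start site, 5′ to 3′ on the gene's strand, with matches to the NF-kB consensus, or for Ahrr to the xenobiotic response element TNGCGTG, in capitals. Both strands were searched. Of 32851 promoters of this length, 4.51% held the NF-kB consensus and 5.07% the xenobiotic response element. The promoters of Tnfaip3 (chr10:19015361-19015660, minus strand), Rel (chr11:23770920-23771219, minus strand, where 2 matches overlap), Ccl20 (chr1:83116516-83116815, plus strand) and Ahrr (chr13:74292282-74292581, minus strand) read as follows.
Tnfaip3: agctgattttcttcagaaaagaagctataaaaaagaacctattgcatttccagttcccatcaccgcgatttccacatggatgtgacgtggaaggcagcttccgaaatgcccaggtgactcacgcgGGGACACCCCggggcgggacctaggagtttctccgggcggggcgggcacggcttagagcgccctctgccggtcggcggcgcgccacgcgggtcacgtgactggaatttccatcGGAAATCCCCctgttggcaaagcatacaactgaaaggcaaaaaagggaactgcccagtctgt
Rel: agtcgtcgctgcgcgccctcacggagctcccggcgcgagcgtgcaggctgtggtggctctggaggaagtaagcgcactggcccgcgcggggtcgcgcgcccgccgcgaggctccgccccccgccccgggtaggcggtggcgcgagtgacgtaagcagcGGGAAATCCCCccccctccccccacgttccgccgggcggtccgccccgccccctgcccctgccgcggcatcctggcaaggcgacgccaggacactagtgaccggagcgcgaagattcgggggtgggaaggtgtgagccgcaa
Ccl20: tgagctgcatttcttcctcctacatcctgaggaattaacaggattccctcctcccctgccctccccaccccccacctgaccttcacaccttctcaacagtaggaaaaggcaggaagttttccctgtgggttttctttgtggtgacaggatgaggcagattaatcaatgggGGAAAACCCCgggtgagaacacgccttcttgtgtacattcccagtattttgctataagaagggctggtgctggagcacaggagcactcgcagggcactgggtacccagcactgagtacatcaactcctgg
Ahrr: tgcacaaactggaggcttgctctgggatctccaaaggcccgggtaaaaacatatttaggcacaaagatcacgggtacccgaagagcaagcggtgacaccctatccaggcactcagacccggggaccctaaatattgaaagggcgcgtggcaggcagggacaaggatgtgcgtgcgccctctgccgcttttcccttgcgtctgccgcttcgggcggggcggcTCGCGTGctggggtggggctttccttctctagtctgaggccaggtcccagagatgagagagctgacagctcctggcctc
Tnfaip3 and Rel held 2 matches each and Ccl20 and Ahrr 1 each. For Tnfaip3, which has 2 promoters listed, the one shown was chosen by its number of matches. Of the 18 NF-kB genes, 14 had a promoter in the table and 8 of those held a match in at least 1 promoter. The share of 4.51% above is over promoters, of which a gene can have several, and not over genes. Of the 7 that were higher, 5 had one and 4 of those held a match (Rel, Nfkbia, Nfkbid and Tnfaip3). A match describes letters only, and binding was not measured.

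Immediate early genes, which cells switch on within minutes of a stimulus, had the most calls of any list. Of 27 genes 21 were higher and 3 lower (8.62% and 2.42% of all tested genes), and the median log2 fold change was 1.74. Atf3, a stress-induced factor, was 329, 499, 343, 147 and 286 CPM in colon and 0, 0, 0, 0.414 and 0 CPM in spleen, where 1 library held its single count, a ratio of 3567 (95% counting interval 639.6 to 140928). Fosl2, a component of AP-1, was 110.2, 197, 139, 80.0 and 94.8 against 1.496, 1.26, 3.48, 3.32 and 0.703 CPM (5.91 ± 0.49, adjusted p = 1.68e-14). The spleen libraries differed among themselves for Fos, which was 33.3, 399, 64.8, 274 and 37.95 CPM there and 1236, 1482, 1561, 1077 and 1392 CPM in colon (3.06 ± 0.52, adjusted p = 1.19e-05, and 3.72 without the spleen library of mouse 2). Dusp5 and Gadd45b rose by 2.62 ± 0.27 and 2.91 ± 0.31. The 3 lower genes were Dusp2 (-0.90 ± 0.19), Myc (-1.02 ± 0.29) and Egr2 (-2.73 ± 0.96). Of these, Egr2 lost its call whichever library was left out (-2.97 to -2.63) and with mouse as a block (adjusted p = 0.0597), and Myc without the colon library of mouse 3 or the spleen library of mouse 1 (-0.80 at the least), so between 1 and 2 lower calls remained in each such fit.

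The same list was read in ST2- CD44hi Tregs of the other tissues, each against the same 5 spleen libraries. In lungs, visceral fat and skin, which were also digested with enzymes, 18, 19 and 20 of the 27 genes were higher (3.2%, 4.26% and 16.7% of all tested genes were, and 0.827%, 1.53% and 14.1% were lower). In blood, which was not digested, 0 were higher and 8 lower (1.65% and 1.72%). Nr4a1, an orphan nuclear receptor induced by antigen receptor signals, was 654, 654, 618, 486 and 492 CPM in colon and 225, 85.0, 97.4, 49.7 and 63.3 CPM in spleen (2.48 ± 0.38, adjusted p = 1.39e-06), with medians of 511 CPM in lungs, 508 in visceral fat, 943 in skin and 14.04 in blood. Tnfaip3 had medians of 1972, 1913 and 2125 CPM in lungs, visceral fat and skin and 803 CPM in blood, and the differences of colon from the 3 digested tissues did not pass the test (adjusted p = 0.617, 0.223 and 0.714, log2 differences 0.17, 0.37 and 0.11). The part of digestion in these levels was not tested. Heat shock and chaperone genes moved less: in colon 6 of 17 were higher and none lower (8.62% and 2.42% of all tested genes). The higher genes included the stress factors Atf4 (0.98 ± 0.14) and Xbp1 (1.15 ± 0.16). The B and plasma cell list stood at 1283 to 2022 CPM in the same colon libraries, and its part in Xbp1 was not tested.

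**Figure D4:**
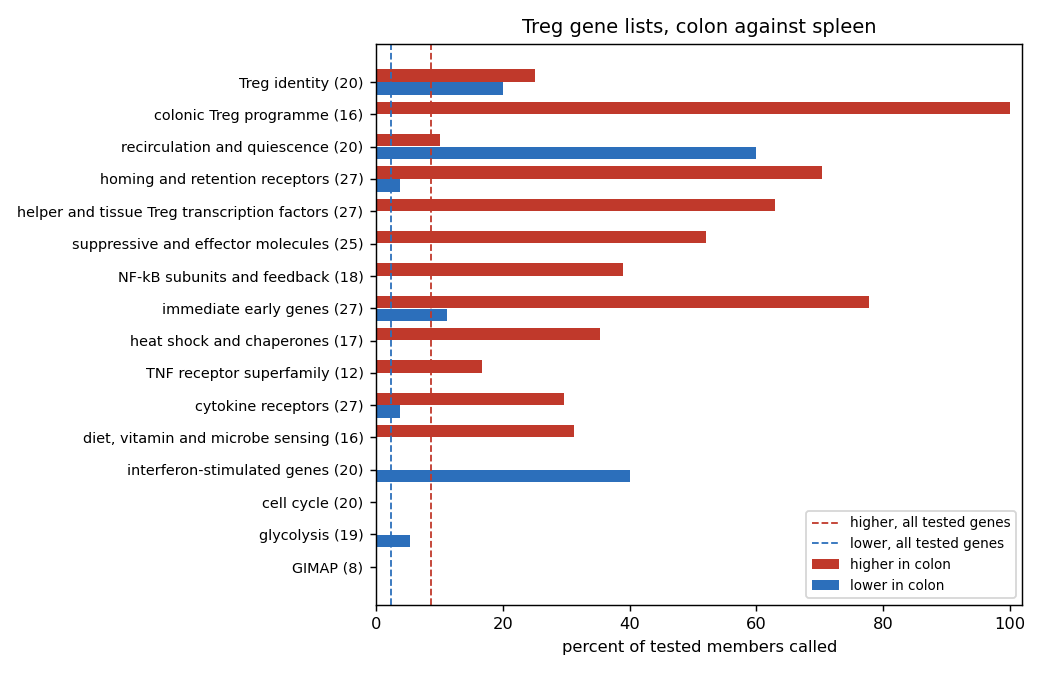
Percent of the tested members of each Treg list called higher (red) or lower (blue) in colon, with the number tested after each name. Dashed lines mark all tested genes, 8.62% higher and 2.42% lower. All 16 tested genes of the colonic Treg programme were higher, and 12 of 20 recirculation genes and 8 of 20 interferon-stimulated genes were lower.

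Homing and retention receptors had the next largest number of calls. Ccr6, Ccr9, Cxcr6, Gpr15 and Itgae are on this list and on the colonic programme list. Other lists share genes too, so a call can count in more than 1 list. Of 27 genes 19 were higher and 1 was lower (8.62% and 2.42% of all tested genes), and the median log2 fold change was 1.73. Ccr2, a receptor for monocyte chemoattractant chemokines, was 654, 654, 856, 555 and 1053 CPM in colon and 41.9, 13.8, 1.74, 26.1 and 15.5 CPM in spleen (5.23 ± 0.51, adjusted p = 5.25e-12). Ltb4r1, the receptor of leukotriene B4, was 166, 64.5, 136, 69.4 and 159 against 0.374, 0, 1.74, 0 and 5.62 CPM (6.14 ± 0.63, adjusted p = 2.08e-11, and 7.70 without the spleen library of mouse 5). Colon and spleen were separate for both.

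Ccr1 was 242, 179, 302, 58.8 and 336 CPM in colon, with 1 count in all of spleen (ratio 2459, 95% counting interval 441 to 97173). Ccr4, a skin and tissue homing receptor, rose by 2.66 ± 0.39, and Cxcr4, which holds lymphocytes in marrow and tissue, by 2.24 ± 0.28. Cd69, the early activation marker that blocks exit from tissue, was 1034, 1276, 1470.5, 1113 and 1367 against 212, 444, 311, 545 and 380.2 CPM (1.73 ± 0.22, adjusted p = 1.70e-08). Rgs2, which damps signals of G protein-coupled receptors, was 833, 907, 898, 746 and 854 against 59.5, 90.4, 80.9, 145 and 58.7 CPM (3.29 ± 0.24, adjusted p = 1.87e-16). The integrin chains of the gut-homing pair, Itga4 (-0.09 ± 0.24) and Itgb7 (0.22 ± 0.10), did not pass the test. Itgb1, the alternative partner of Itga4, was the lower gene, at 153, 364, 406, 376 and 165 CPM in colon and 618, 702, 686, 624 and 497 CPM in spleen (-1.09 ± 0.21, adjusted p = 9.11e-05).

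Recirculation and quiescence genes went the other way: 12 of 20 were lower and 2 higher (2.42% and 8.62% of all tested genes). The median log2 fold change was -0.99. These genes keep T cells moving between blood and lymphoid organs. Lef1 and Tcf7, paired factors of naive and memory T cells, were 88.6, 54.9, 56.4, 138 and 80.3 and 215, 144, 88.2, 285 and 140.1 CPM in colon against 225, 219.7, 242, 219 and 215 and 558, 509, 468, 476 and 393 CPM in spleen (-1.41 ± 0.20 and -1.46 ± 0.32, adjusted p = 3.43e-07 and 0.001). In both genes, mouse 4 was the highest colon library.

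S1pr1, the receptor for exit into lymph and blood, fell by 0.92 on the log2 scale (adjusted p = 0.000472). Klf2, the factor known to drive S1pr1, was higher instead, at 299, 339, 295, 269.7 and 178 CPM in colon and 146, 146, 116, 135 and 104 CPM in spleen (1.09 ± 0.17, adjusted p = 1.52e-06), and so was the survival cytokine receptor Il7r (0.70 ± 0.17, adjusted p = 0.0039). Ccr7, the lymph node homing receptor, was 746, 538, 289, 866 and 343 CPM in colon around the 423 to 517 CPM of spleen and did not pass the test (0.31 ± 0.41). In the 12 lower genes, 9 calls held with each library left out in turn; S1pr4, Bach2 and Cxcr5 lost theirs in 5 to 9 of the 10 fits, with log2 fold changes of -1.30 to -0.82, -1.56 to -1.22 and -1.86 to -1.64.

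Transcription factors of helper and tissue Tregs were mostly higher: 17 of 27 were higher and none lower (8.62% and 2.42% of all tested genes). The median log2 fold change was 1.45. Bhlhe40 was 1036, 1047, 910.0, 784 and 919.9 CPM in colon and 188, 102.1, 163, 165 and 88.9 CPM in spleen (2.73 ± 0.26, adjusted p = 1.23e-12). Rora, an orphan nuclear receptor, was 560.1, 805, 586, 534 and 623 against 126, 128, 120.4, 165 and 147 CPM (2.18 ± 0.29, adjusted p = 6.11e-08), and Id2, an inhibitor of E proteins, 555, 615, 638, 398 and 649 against 128, 144, 131, 149 and 193 CPM (1.94 ± 0.27, adjusted p = 1.37e-07). All 3 were separate between tissues. Klf6 and Ikzf3 (Aiolos) rose by 2.36 ± 0.17 and 1.36 ± 0.20, and Gata3, the type 2 factor, by 0.84 ± 0.13, while Batf, which tissue Tregs need in several organs, did not pass (-0.20 ± 0.16). Prdm1 and Runx1 lost their calls without the colon library of mouse 5 (1.17 and 0.58), and Runx3 and Epas1 lost theirs in 8 and 4 of the 10 fits (0.81 to 1.11 and 3.30 to 4.54). Runx3 also lost it with mouse as a block (adjusted p = 0.054). The part of B and plasma cell RNA in Prdm1 and Ikzf3 was not tested.

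Among suppressive and effector molecules 13 of 25 tested genes were higher and none lower (8.62% and 2.42% of all tested genes). Their median log2 fold change was 1.59. Gzmb, the protease granzyme B, was 563, 585, 504, 205 and 644 CPM in colon and 0.374, 0.419, 20, 1.66 and 13 CPM in spleen (6.13 ± 0.70, adjusted p = 6.25e-10, and 6.90 without the spleen library of mouse 3). Areg, amphiregulin, a growth factor for epithelium, was 235, 347, 234, 145 and 199 against 8.23, 15.1, 27.0, 19.5 and 27.8 CPM (3.57 ± 0.35, adjusted p = 4.81e-12). Fgl2, a secreted suppressor, was 466, 331, 506, 263 and 571 against 20.2, 63.2, 30, 37.7 and 53.8 CPM (3.38 ± 0.36, adjusted p = 7.36e-11). No colon library fell within the spleen range for these genes. Ebi3, a subunit of interleukin-35 (0.46 ± 0.43), Tgfb1 (0.45 ± 0.40), Lag3 (0.54 ± 1.11) and Penk (0.00 ± 0.66) did not pass the test. Tigit did, but lost its call in 7 of the 10 fits that left out a library (0.79 to 0.95).

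Genes of Treg identity split. Of 20, 5 were higher (Ctla4, Capg, Socs2, Tnfrsf4 and Tigit), 4 were lower and 11 did not pass, with a median log2 fold change of 0.16. Among all tested genes 8.62% were higher and 2.42% lower. Leaving out the colon library of mouse 2 or 5, or the spleen library of mouse 1 or 5, left 3 higher, without Tnfrsf4 (0.61 ± 0.12, adjusted p = 0.000149, range 0.56 to 0.67) and Tigit. The lower genes were Ikzf4 (Eos), the surface receptor Nrp1, Gpr83 and the folate receptor Izumo1r. Nrp1 was 193, 245, 279, 317 and 108 CPM in colon and 443, 576, 579.6, 410.3 and 448 CPM in spleen (-1.10 ± 0.24, adjusted p = 0.000948), and Ikzf4 was 137, 86.8, 72.0, 166 and 90.6 against 285, 294, 300.0, 249 and 259.7 CPM (-1.32 ± 0.28, adjusted p = 0.000419). The groups were separate for both. Helios (Ikzf2, -0.35 ± 0.15) and CD25 (Il2ra, 0.08 ± 0.16) did not pass.

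No interferon-stimulated gene of the list was higher and 8 of 20 were lower (8.62% and 2.42% of all tested genes were), with a median log2 fold change of -0.94. Irf9, which carries the interferon signal to the nucleus, was 161, 122, 159.6, 171 and 161 CPM in colon against 377, 312, 344, 342 and 359 CPM in spleen (-1.16 ± 0.22, adjusted p = 7.90e-05). Zbp1, a sensor of nucleic acids, fell by 1.27. The 5 libraries of each tissue were separate for both genes. Ifit1, Ifit2 and Usp18 lost their calls in most fits that left out a library (log2 fold changes of -2.87 to -2.29, -1.76 to -1.35 and -2.72 to -1.91), and 5 lower genes remained without the colon library of mouse 1 or 2 or the spleen library of mouse 2, 4 or 5. Isg15 and Irf7 did not pass (-0.63 ± 0.38 and -0.41 ± 0.25). Off the list, the schlafen genes Slfn1 and Slfn2 fell by 1.95 and 1.06, and Irgm1, an interferon-induced GTPase, by 1.79.

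The smallest adjusted p among lower genes belonged to Tnfaip8l2, which encodes TIPE2, a negative regulator of immune receptor signals. Its level was 85.2, 76.6, 103, 84.3 and 84.0 CPM in colon and 200.1, 222, 209, 212 and 218 CPM in spleen (-1.29 ± 0.14, adjusted p = 3.25e-10). Il16, a ligand of CD4, followed with 212, 172, 222, 213 and 238.6 against 384, 397, 419, 395 and 412 CPM (-0.92 ± 0.11, adjusted p = 6.19e-10). The 5 libraries of each tissue lay close together in both genes, and no value crossed between the tissues. Pik3ip1, an inhibitor of phosphoinositide 3-kinase, was 35.2, 54.9, 44.1, 92.3 and 55.0 against 181, 198, 131, 155 and 176 CPM (-1.57 ± 0.24, adjusted p = 1.71e-06).

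Genes that sense diet, hormones and microbes gave 5 higher and 0 lower of 16 tested (8.62% and 2.42% of all tested genes). Their median log2 fold change was 1.55 (1.36 with genes absent from spleen set to their bound). With mice 1 and 4 alone, 5 were called. The aryl hydrocarbon receptor Ahr, which binds plant and microbial indoles, was 235, 184, 156, 78.3 and 220.5 CPM in colon and 49.0, 29.7, 32.2, 32.3 and 34.8 CPM in spleen (2.29 ± 0.45, adjusted p = 0.000177). Tiparp, one of its target genes, was 185, 246, 234, 203 and 210.2 against 21.3, 27.6, 27.8, 56.4 and 30.2 CPM (2.72 ± 0.27, adjusted p = 1.21e-11). Cyp1a1, the target most often used as its readout, was at 0 in all 10 libraries. Nr1d1, the clock repressor REV-ERBa, was 93.2, 93.8, 50.6, 74.5 and 79.7 against 0, 8.37, 0, 4.97 and 20.03 CPM (3.52 ± 0.80, adjusted p = 0.00124, and 4.54 without the spleen library of mouse 5). The glucocorticoid receptor Nr3c1 rose by 1.78 ± 0.19, and the retinoic acid receptor Rara did not pass (0.72 ± 0.28). Of the 20 listed genes, 16 had a listed promoter and 3 of those held the xenobiotic response element in at least 1 promoter. Of the 5 higher genes 3 had a listed promoter, and Ahrr and Nr1d1 held the element. Its share of 5.07% above is over promoters, of which a gene can have several, and not over genes. Binding was not measured.

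Among 27 cytokine receptor genes 8 were higher and 1 lower (8.62% and 2.42% of all tested genes, here and for the lists below). Ifngr1, a chain of the interferon gamma receptor, was 1095, 1242, 1107, 900.1 and 1209 CPM in colon and 329.8, 354, 290.0, 423 and 369.7 CPM in spleen (1.65 ± 0.13, adjusted p = 6.69e-15). Il18r1 was 148, 301, 336, 279 and 328 against 81.5, 114, 73.0, 132 and 134 CPM (1.38 ± 0.33, adjusted p = 0.00269), and Il9r rose by 2.50 ± 0.52. Il6ra, the lower gene, was 29.0, 7.66, 20.8, 44.9 and 16.3 against 54.2, 102.1, 85.2, 59.3 and 64.7 CPM (-1.60 ± 0.28, adjusted p = 2.56e-05). Of 12 TNF receptor genes only Tnfrsf4 and Tnfrsf10b (3.33 ± 0.64) were higher, and Tnfrsf10b alone remained in 5 of the 10 fits that left out a library. Cell cycle genes (0 of 20), GIMAP genes (0 of 8) and glycolysis genes (1 of 19 gene identifiers, Pdk1, lower) had few calls, with median log2 fold changes of -0.65, -0.08 and 0.20. Mki67, the proliferation marker, was 108, 31.9, 16.9, 37.3 and 23.0 CPM in colon and 99.1, 28.9, 56.1, 78.7 and 33.0 CPM in spleen, with overlapping groups (-0.44 ± 0.61).

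Colon was then set against the other digested tissues. Compared with ST2- CD44hi Tregs of lungs, visceral fat and skin, 517 (3.92%), 162 (1.23%) and 1186 (9%) genes were higher in colon, and 39 (0.296%) were above all 3. Of the 36 of these that were also higher than in spleen, 13 were on marker lists of other cells. A further 10 were not seen in Tregs of other tissues, and 13 were. Lower in colon were 261 (1.98%), 75 (0.569%) and 867 (6.58%) genes, and 10 (0.0759%) were below all 3. Against spleen, 262 genes (1.99%) were higher in each of lungs, visceral fat and skin. Il10 was above all 3, with medians of 686 CPM in colon, 309.9 in skin, 120.2 in visceral fat, 64.7 in lungs and 0.439 in blood. Its log2 difference from skin, the nearest tissue, was 0.97 (adjusted p = 0.0365). Against spleen, 21, 11 and 6 of 27 transcription factors were higher in ST2- Tregs of skin, visceral fat and lungs, and none lower. Of 27 homing receptors, 18, 13 and 9 were higher and 2, 0 and 0 lower. Of 20 recirculation genes, 9, 8 and 1 were lower and 2, 1 and 6 higher. Of 20 interferon-stimulated genes, 8, 4 and 0 were lower and none higher. Over all tested genes 16.7%, 4.26% and 3.2% were higher and 14.1%, 1.53% and 0.827% lower.

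Other genes above all 3 tissues, chosen after their values were seen, had varied roles. Lgmn, the lysosomal protease legumain, was 307, 120.0, 132, 33.0 and 105 CPM in colon, with medians of 17.6 CPM in lungs, 9.54 in visceral fat and 32.9 in skin. Gpr183, the oxysterol receptor EBI2 that positions lymphocytes, was 428, 448, 502, 409 and 454 CPM in colon against medians of 222, 223 and 268 CPM. Asb2, a subunit of a ubiquitin ligase, was 636, 312, 407, 202 and 448 CPM in colon, and its medians were 16.2, 45.6 and 0 CPM. All 3 were also higher than in spleen, with log2 fold changes of 4.62 ± 0.63, 1.38 ± 0.21 and 2.37 ± 0.62. Txndc5 and Creld2, which act in protein folding in the endoplasmic reticulum and are abundant in plasma cells, rose over spleen by 1.49 ± 0.29 and 1.2 ± 0.25 and were above all 3 tissues too. The B and plasma cell list stood at 1283 to 2022 CPM in the same colon libraries, and its part in these genes was not tested.

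**Figure D5:**
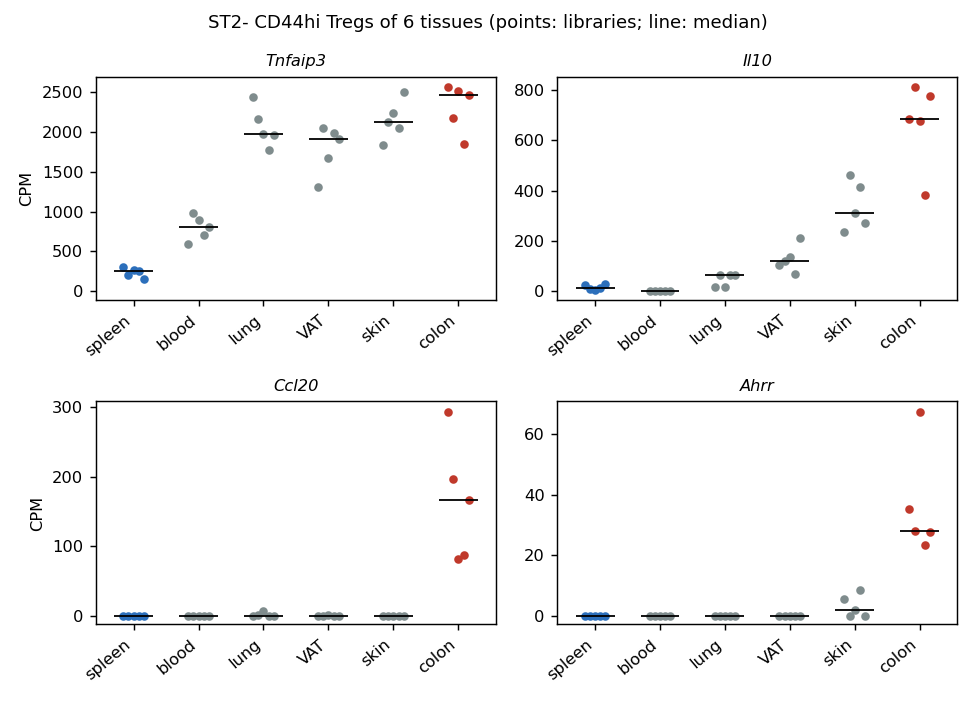
CPM of 4 genes in ST2- CD44hi Tregs of spleen, blood, lungs, visceral fat (VAT), skin and colon, 1 point per library with lines at the medians. Tnfaip3 is at similar levels in the 4 digested tissues, with a colon median of 2462 CPM, whereas Ccl20 has a median of 0 CPM in every tissue but colon. Ccl20 was picked from genes not seen in Tregs of other tissues, so its low level there follows from that choice.

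ST2+ CD44hi Tregs of colon and spleen, which are separate libraries from the same mice, gave a second reading of the tissue difference, although only 3 colon ST2+ libraries were kept. In them 1136 genes were higher in colon (8.62%) and 235 lower (1.78%). Of the genes higher in ST2- cells 718 were also higher in ST2+ cells (63.2% of each list, as both counts are 1136), and 120 of the lower genes were also lower, 37.6% of the ST2- list and 51.1% of the ST2+ list. The colon ST2+ libraries held 385 to 6845 epithelial CPM, so tissue RNA was common to both comparisons.

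No gene passed the test of the difference between both comparisons (edgeR interaction, smallest adjusted p 0.0968), with 474 genes at an unadjusted p under 0.05. DESeq2 called 26 genes and voom with quality weights, the fitting method of the authors, 147. The smallest p belonged to Prg4, the lubricant proteoglycan 4, which was 215, 116, 107, 135 and 203 CPM in colon and 53.5, 71.6, 67.8, 63.0 and 55.5 CPM in spleen among ST2- cells (1.32 ± 0.43) and went the other way in ST2+ cells (log2 fold change -2.04). It was the 1 gene called in opposite directions, and its call in ST2- cells was kept in 3 of the 10 fits that left out a library (1.15 to 1.42). Ccr2 rose by 5.23 ± 0.51 in ST2- cells and by 2.06 in ST2+ cells, where spleen cells already had a median of 94.8 CPM. Itgae also moved in opposite directions, 1.58 ± 0.56 in ST2- and -1.0 in ST2+ cells, but its interaction did not pass (adjusted p = 0.864). For Prg4 and Ccr2 the adjusted interaction p was 0.0968, which misses the threshold and does not show that ST2- and ST2+ Tregs responded alike.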

How the data were processed

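ST2- CD44hi Tregs of colon and spleen were read by bulk SMART-Seq v4 RNA-seq of 220 sorted cells per library. The authors aligned 58-base single reads to GRCm38 with STAR and deposited raw HTSeq (0.4.1) counts per Ensembl gene. The submitters' processing notes also list CASAVA 1.8.2, and the authors drew quality metrics from Picard, FastQC and SAMtools. Groups came from the sample labels. Libraries with more than 1000000 counts were kept (67 of 70), with 1304560 to 2759926 counts each.

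The 13173 protein-coding genes that reached 1 CPM in 10% or more of kept libraries were fitted with edgeR 4.0.16 (TMM factors, 1 term per group over 14 groups, quasi-likelihood test) and called where the change was 1.5-fold or more and the Benjamini-Hochberg adjusted p no higher than 0.05. Errors after ± are standard errors of log2 fold changes. Gene levels are TMM-scaled CPM and marker sums are CPM of the library total. Because an exact 0 gives no fold, bounds were computed against 3 counts over the spleen group. Alternatives were DESeq2 1.42.0, voom with quality weights (limma 3.58.1), other filters, scalings and sets of libraries. The authors fitted their genes by voom with quality weights, so the fit reported here departs from theirs. The fits were tested on simulated counts with known changes, drawn independently for each library and without a mouse effect. That test therefore does not cover differences between mice. Colon and spleen libraries of a number come from the same mouse, yet their deviations from the group means hardly correlated (Pearson's r across genes -0.0121 to 0.123, highest with the own mouse in 2 of 5).

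The members and gene lists were chosen with earlier results of these data known. Named genes were those of the gate, the called genes of each list with the smallest adjusted p (up to 5 a direction), all of the colonic Treg programme, the 15 strongest called genes per direction by adjusted p, the highest markers of other cells, and the top 6 of the slope, the interaction and the genes not seen elsewhere. 43 named genes lie outside this rule and were chosen after their values were seen (Asb2, Bach2, Batf, Birc3, Ccr4, Ccr7, Cd69, Cd83, Creld2, Cxcr5, Cyp1a1, Ebi3, Epas1, Fos, Gata3, Gpr183, Gzmb, Ifit1, Ifit2, Ikzf2, Il2ra, Irf7, Isg15, Itga4, Itgb7, Junb, Lag3, Lgmn, Mki67, Nfkb1, Nfkb2, Nr4a1, Penk, Prdm1, Rara, Relb, Runx1, Runx3, S1pr4, Tcf7, Tgfb1, Txndc5 and Usp18). Some genes under this rule are not reported here but stay in the counts of their lists. No 2 replicate libraries agreed within sampling noise. The authors describe purity checks for sorts from lungs and spleen, and none for colon is given in the sources used here. Each mouse gave 1 library per group, and intervals and floors cover counting error only.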

Additional observations from a re-analysis of the deposited data

Results flagged for a closer look

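The colon library of mouse 2 was far from the other 4 in epithelial RNA (6761 CPM) and in macrophage and dendritic cell RNA (2868 CPM), by Dixon's test at the 95% level, which marks about 1 in 20 groups by chance. Among the genes named here it was also the far library for Acta1 (275), Agr2 (662), Cd24a (282), Ckmt1 (302), Epas1 (93.8), Gmds (241), Lgals4 (579.7), Spint2 (402) and Tspan1 (338), each in CPM and highest there. The sums of the CD8, NK and gamma delta T cell list stood apart in the spleen library of mouse 4 (35.1 CPM, lowest). In all, 44 of 302 groups of 5 values stood apart in this way, 12 of them through the colon library of mouse 2.

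Single libraries stood apart in further genes. In the colon library of mouse 1, the highest CPM value stood apart for Ebi3 (144), Mki67 (108), Nfkb2 (311) and Tgfb1 (177). Tnfrsf10b (11.4) had the lowest CPM value apart in the colon library of mouse 1. Mouse 2 gave the lowest colon value apart, in CPM, for Irf9 (122). In the colon library of mouse 3, the highest CPM value stood apart for Ahrr (67.5). Usp18 (72.4) had the highest CPM value apart in the colon library of mouse 4. Mouse 4 gave the lowest colon value apart, in CPM, for Junb (1088), Odc1 (393) and Tnfrsf4 (637). In the colon library of mouse 5, the highest CPM value stood apart for Irf7 (199.9), Itga4 (583), Runx1 (300.2) and Slfn2 (242). Acta1 (2.24), Ahr (49.0), Dusp5 (77.8) and Nr4a1 (225) had the highest CPM value apart in the spleen library of mouse 1. Mouse 1 gave the lowest spleen value apart, in CPM, for Gmds (29.9), Ikzf2 (673) and Ptprc (1576). In the spleen library of mouse 3, the highest CPM value stood apart for Capg (437), Ccr1 (0.435), Cd24a (0.87) and Plpp3 (0.435). Atf3 (0.414), Ccr7 (517), Il2ra (505) and Tiparp (56.4) had the highest CPM value apart in the spleen library of mouse 4. Mouse 5 gave the highest spleen value apart, in CPM, for Cxcr6 (88.2) and Il23r (3.16).

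Itgae and Prg4 were higher in all colon than in all spleen libraries among ST2- cells and lower in all of them among ST2+ cells, with interactions of 2.57 and 3.36 on the log2 scale (edgeR adjusted p = 0.864 and 0.0968), neither of which passed.

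Immunoglobulin genes, which were not part of the protein-coding test, were read in the same libraries, and some were high in every colon library. Igha, the heavy chain of IgA, had a median of 1277 CPM in colon (1008 to 1430) against 4.14 to 15.8 CPM in spleen, and Igkc, the kappa light chain, a median of 552 CPM (427 to 630) against 8.66 to 88.1 CPM. Mice 1 and 4, with under 100 epithelial CPM, held 1178 and 1008 CPM of Igha. Some other heavy chain genes were lower in colon. Ighm, of IgM, was 364 to 557 CPM in colon against 812 to 863 CPM in spleen, and Ighg3 had a median of 0 CPM against 24.8 CPM (exact permutation test, two-sided, p = 0.00794 for each). Ighd had a median of 2.80 CPM against 36.4 CPM (p = 0.0476 in the same exact test), with the colon library of mouse 2 above the spleen range at 52.0 CPM.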

How the results depend on the processing

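Counts of genes depended on the libraries and the test. Against 1136 higher genes, a gene filter at 50% of libraries gave 637, a test against the 1.5-fold limit itself (edgeR glmTreat) 656, and the 2 colon libraries under 100 epithelial CPM, an alternative chosen after seeing the data, 409. Fits that left out 1 library gave 747 to 1129 higher genes, with the lowest count without the colon library of mouse 2. Against 319 lower genes, glmTreat gave 77, those 2 libraries 72, all 70 libraries 207, a fit of only the 10 libraries 515 and voom with quality weights 655 (and 1699 higher), and leaving out 1 library gave 214 to 387. DESeq2 gave 994 and 370, median-of-ratios factors 1168 and 311, no gene filter 1048 and 261, leaving the other-cell genes out before scaling 1054 and 324, and the epithelial term 902 and 324, each within 1.5 times.

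With mouse as a replicate block, which pairs the libraries of each mouse, 1065 genes were higher and 342 lower. The block left 1 gene following epithelial RNA in place of 6, and the epithelial sum kept its difference of 4.02 with an exact p = 0.0625 that 5 pairs cannot lower. Among the named genes it changed the calls of Acta1, Egr2, Itgae and Runx3 and of no other. Genes following epithelial RNA numbered 51 in a fit of only the 10 libraries, 5 with a linear term, 4 with a sum without its 5 highest genes, and 0 to 5 with 1 colon library left out. The difference of epithelial sums ran from 3.04 to 4.64 with 1 library left out. Interaction calls, 0 in the fit reported, were 13 in a fit of the 4 groups, 26 in DESeq2 and 147 in voom with quality weights, and the cause of these differences was not tested. Directions turned for Acta1 without the colon library of mouse 2 (its log2 fold change ran from -1.73 to 8.38 with 1 library left out), and with the 2 colon libraries under 100 epithelial CPM for Acta1 (-1.07) and Dstn (-0.051). Ckmt1 stood at 0 there, with no direction.

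Depth limited low genes: a gene with 3 counts over the 5 spleen libraries stands at 0.251 CPM, and no fold above a spleen group at 0 is more than a bound. The highest count per exonic base was 1.96 in genes of at least 100 bases, and 100 called genes exceeded 0.5 in a library. Tnfrsf4, Nfkbia, Fos, Junb, Ctla4, Icos, Il10, Jchain and Tnfaip3 were among them. Whether duplicate reads were removed is not given in the sources used here, and their part in these levels was not tested.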

Other observations

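Genes outside the lists were among those with the smallest adjusted p. Ubl3, a membrane-anchored ubiquitin-like protein, was 562, 576, 496, 419 and 537 CPM in colon and 172, 186, 168, 159 and 150.1 CPM in spleen (log2 fold change 1.63 ± 0.10, adjusted p = 2.47e-19). Odc1, the rate-limiting enzyme of polyamine synthesis, was 579, 570.1, 538, 393 and 527 against 102.1, 128, 138, 116 and 83.6 CPM (log2 fold change 2.20 ± 0.17, adjusted p = 4.84e-16). Crem, a factor that answers cyclic AMP, was 332, 627, 439, 422 and 539 against 45.6, 56.5, 36.1, 64.7 and 53.8 CPM (log2 fold change 3.20 ± 0.26, adjusted p = 6.69e-15). In each of these genes the 5 colon values lay above the 5 spleen values. Lmna, the lamin A of the nuclear envelope, was 573, 697, 693, 403 and 423 against 12.7, 7.11, 3.91, 26.1 and 17.6 CPM (log2 fold change 5.35 ± 0.47, adjusted p = 2.10e-13), and Vps37b and Rnf125 rose by 2.86 ± 0.25 and 2.12 ± 0.19 on the log2 scale.

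Lower genes outside the lists included Trim59 (69.9, 62.6, 97.9, 99.5 and 132 CPM in colon against 215, 207, 243, 256 and 226 CPM in spleen, log2 fold change -1.31 ± 0.18, adjusted p = 1.66e-07), Traf3ip3 (285, 236, 182, 262 and 211 against 433, 500.1, 517, 429 and 470.2 CPM) and the DNA and RNA dioxygenase family member Alkbh4 (log2 fold change -2.19 ± 0.32). Smc4, a condensin subunit, was 323, 349, 256, 549 and 385 against 695, 665, 653, 763 and 747 CPM (log2 fold change -0.92 ± 0.15, adjusted p = 3.63e-06), with mouse 4 the highest of the colon libraries. Ift80, known from cilia, was 63.1, 129.6, 46.1, 305 and 101 against 362, 431, 459, 529 and 500.1 CPM (log2 fold change -1.81 ± 0.30, adjusted p = 6.09e-06), and without the colon library of mouse 4 its log2 fold change was -2.45. Both groups were separate in all of these values.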
